A study of Mus musculus with 4 samples.

Results

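A group of 10 genes of the integrated stress response and of serine synthesis were followed in outgrowths of mouse blastocysts that lacked Tip110: Atf4, Ddit3, Atf3, Trib3, Chac1, Asns, Psat1, Phgdh, Sesn2 and Ddit4. They were chosen by name as known parts of the pathway, and each was read from the array row annotated with that symbol alone. All 10 had such a row, out of 30142 genes with a row of their own. Ddit3 had 2 such rows, of which the brighter one was used.

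The arrays compared Tip110-/- with wild-type outgrowths, both from intercrosses of Tip110+/- mice, with 2 arrays per genotype and no treatment. Tip110, the product of Sart3, is a nuclear protein that helps to rebuild spliceosome particles. Blastocysts flushed at 3.5 days post coitum were grown one per well for 4 to 6 days in stem cell medium with knockout serum replacement, which yields spread trophoblast around cells derived from the inner cell mass. Replicate 1 of either genotype pooled the RNA of 3 outgrowths, and replicate 2 came from 1 outgrowth, called the single outgrowth here. The labels give neither the mouse strain nor the deleted part of the gene. They call the samples biological replicates. The p-values rest in part on the spread between 1 pool and 1 outgrowth per genotype. In limma each gene's spread is drawn toward that of genes of like signal, so its SE can differ from what its own SD implies.

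The integrated stress response starts with kinases that sense a lack of amino acids, unfolded protein, a lack of heme or viral RNA and that phosphorylate eIF2α. General translation then slows, while translation of Atf4 mRNA is favoured. The ATF4 protein switches on genes for amino acid uptake and synthesis, among them the serine pathway, which also feeds the one-carbon units that dividing cells use to make nucleotides. Because much of the control of ATF4 is on translation, RNA arrays see only a part of it.

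ATF4 binds DNA with C/EBP partners at a composite element whose core is TGATGNAA, where N is any base. This core was searched on both strands of RefSeq promoters of build GRCm38.p6, from 250 bases before to 50 bases after each transcript start. All 10 genes had a promoter there, 11 in all because Psat1 had 2, and 4 genes held the core: Atf3, Chac1, Trib3 and Asns. Of all 32851 promoters in the table, 3.97% held it. The windows of 60 bases around it are shown in the direction of the gene, with the core or its reverse complement in capitals. They show where the letters of the core lie, and whether ATF4 acts through these matches was not tested. Slc7a11, a target outside the 10 that is described further on, is added for comparison.
Atf3: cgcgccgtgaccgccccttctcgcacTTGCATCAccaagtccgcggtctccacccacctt
Chac1: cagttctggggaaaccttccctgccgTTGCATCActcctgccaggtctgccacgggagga
Trib3: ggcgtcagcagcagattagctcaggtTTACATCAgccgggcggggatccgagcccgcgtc
Asns: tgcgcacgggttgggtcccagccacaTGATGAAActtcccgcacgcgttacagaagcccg
Slc7a11: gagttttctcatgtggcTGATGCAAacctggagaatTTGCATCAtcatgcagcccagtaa

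These windows lie at chr1:191183410-191183469 on the minus strand for Atf3, chr2:119351023-119351082 on the plus strand for Chac1, chr2:152344013-152344072 on the minus strand for Trib3, chr6:7693199-7693258 on the minus strand for Asns and chr3:50443637-50443696 on the minus strand for Slc7a11. The match began 110 bases before the transcript start in Atf3, 193 before it in Chac1, 23 before it in Asns and 14 bases after it in Trib3. Slc7a11 held 2 matches, 66 and 47 bases before its start. A match describes the letters only and is not evidence of binding in these cells.

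None of the 10 genes passed the test between genotypes. With 2 arrays each, this does not show that they were equal, and the 95% intervals given with several of them are wide. At limma's adjusted p under 0.05, 0 of the 10 were called, as were 0 of all 30142 genes (0%). At an unadjusted p under 0.05 the counts were 0 of 10 higher and 0 of 10 lower in Tip110-/-, where over all genes 8.99% were higher and 3.67% lower. Both Tip110-/- arrays lay above both wild-type arrays for 1 of the 10, Ddit4, and below both for 1, Psat1, against 39.9% above and 12.9% below over all genes. The differences ran from -0.43 to 0.97 on the log2 scale, with 5 above and 5 below 0 and a median of 0.05, beside a median of 0.15 over all genes. The limma adjusted p lay between 0.429 and 0.838. What stood out in the values was the single Tip110-/- outgrowth, in which Atf4 and Ddit3 were high while the pool of 3 Tip110-/- outgrowths was not.

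**Figure D1:**
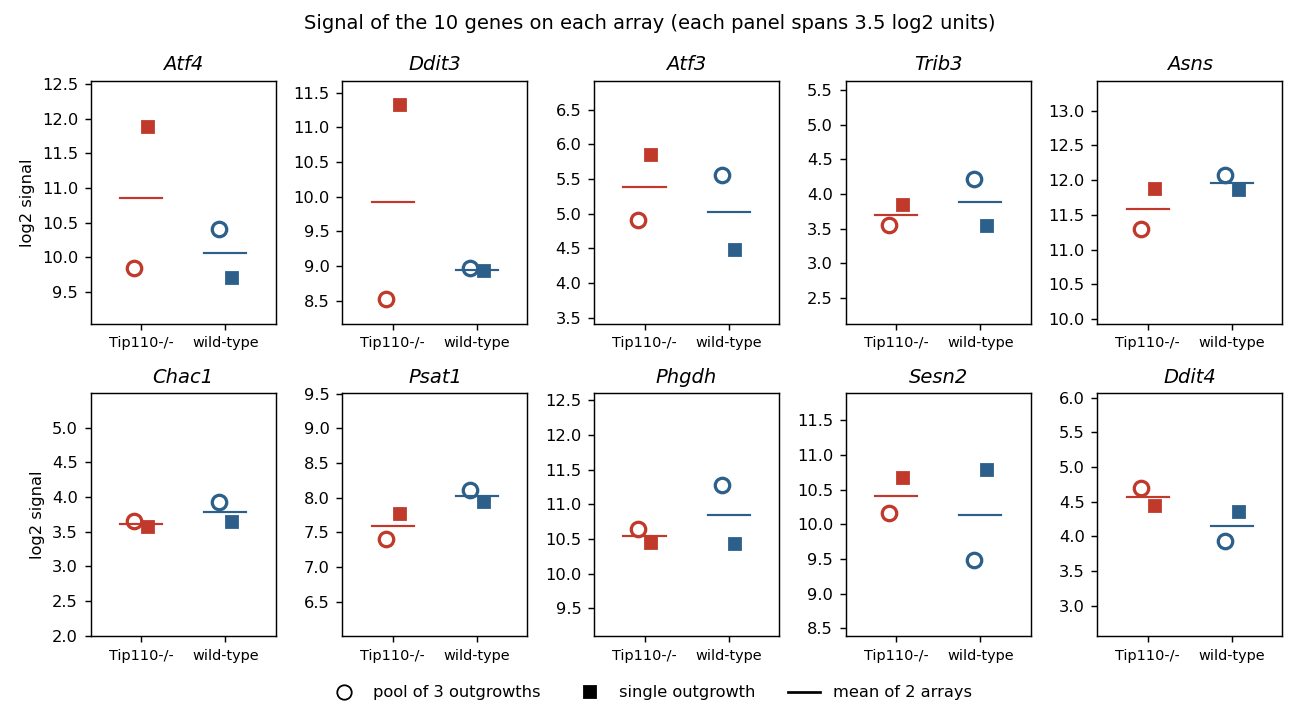
Log2 signal of each of the 10 genes on each of the 4 arrays, Tip110-/- left and wild-type right, with the pool of 3 outgrowths as an open circle, the single outgrowth as a filled square and the mean of 2 arrays as a line. Atf4 and Ddit3 were highest in the single Tip110-/- outgrowth, at 11.88 and 11.32, and the other 3 arrays lay between 9.71 and 10.42 for Atf4 and between 8.52 and 8.97 for Ddit3; only Psat1 and Ddit4 showed no overlap between genotypes.

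A few facts of the whole series bear on these values. Sart3 was at 4.28 and 4.54 in the Tip110-/- arrays, against 4.94 and 5.98 in the wild-type arrays (limma adjusted p = 0.386), which is a limited check of the labels. RNA per outgrowth was 55 pg in the Tip110-/- pool and 144 pg in the single Tip110-/- outgrowth, against 249 pg and 178 pg in wild-type. The median over genes was 4.45 and 4.32 on the Tip110-/- arrays, against 4.21 and 4.22 on the wild-type arrays, and the spiked hybridization controls cre, bioB, bioC and bioD were also higher on both Tip110-/- arrays. The 1324 positive control rows went the other way, with a median of 8.69 and 9.51 on the Tip110-/- arrays, against 9.80 and 9.66 on the wild-type arrays. Such differences cannot be told apart from genotype. The table has no detection calls, so levels are set beside 5222 negative control rows, whose median was 4.28 and 4.18 on the Tip110-/- arrays and 3.98 and 4.03 on the wild-type arrays.

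Atf4 encodes the transcription factor at the centre of the response. On the log2 scale its signal was 9.84 in the Tip110-/- pool and 11.88 in the single Tip110-/- outgrowth, against 10.42 in the wild-type pool and 9.71 in the single wild-type outgrowth. The single Tip110-/- outgrowth was the highest of the 4 and the Tip110-/- pool lay between the 2 wild-type arrays, so the groups overlapped. The means were 10.86 ± 1.44 in Tip110-/- and 10.06 ± 0.50 in wild-type (SD, n = 2 each). The difference was 0.80 ± 0.84 (SE; limma adjusted p = 0.629), a ratio of 1.74 with a 95% interval from 0.389 to 7.80. Without the single Tip110-/- outgrowth it was -0.22, and without the Tip110-/- pool it was 1.82.

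Ddit3 encodes CHOP, a C/EBP-family factor that ATF4 induces and that takes part in stress-induced cell death. Its log2 signal was 8.52 in the Tip110-/- pool and 11.32 in the single Tip110-/- outgrowth, against 8.97 and 8.92 in wild-type. The wild-type arrays were nearly equal, and the Tip110-/- arrays lay on either side of them. A second row annotated as Ddit3 gave the same picture, at 8.05 and 10.73 in Tip110-/-, compared with 8.47 and 8.26 in wild-type; rows of 1 gene share the same RNA and are no separate evidence. The difference was 0.97 ± 1.01 (SE; limma adjusted p = 0.627), a ratio of 1.96 with a 95% interval from 0.323 to 11.9. Without the Tip110-/- pool, which leaves 1 Tip110-/- array, it was 2.37, and without the single Tip110-/- outgrowth it was -0.43.

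Atf3 encodes a stress-induced factor that acts beside ATF4 and CHOP. The log2 signal came to 4.91 in the Tip110-/- pool and 5.85 in the single Tip110-/- outgrowth, against 5.56 and 4.48 in wild-type. The single Tip110-/- outgrowth was again the highest and the single wild-type outgrowth the lowest, and the groups overlapped. The difference was 0.36 ± 0.50 (SE; limma adjusted p = 0.714). Between 59.6% and 75.8% of the negative control rows lay below Atf3 on each array, so its signal was not far from that of these controls.

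The gap between the 2 arrays of 1 genotype was wide for Ddit3 and Atf4 in Tip110-/-, and less so for Atf3. For Ddit3 the single Tip110-/- outgrowth exceeded the pool by 2.80, a gap that 1.04% of all genes matched or passed in either direction, and in wild-type the gap was -0.05. For Atf4 it exceeded the pool by 2.04, matched or passed by 2.38% of genes, and in wild-type the gap was -0.71. For Atf3 the gap was 0.94 in Tip110-/-, matched or passed by 11.4% of genes, and it was wider in wild-type, at -1.09 (8.32% of genes). The gaps of the other 7 genes ran from -0.25 to 0.59 in Tip110-/- and from -0.86 to 1.30 in wild-type. The shares are over all genes, whose median signal was near that of the negative control rows, and were not taken among genes of like signal. Some genes of the groups described further on had wider Tip110-/- gaps than Atf4, such as Slc7a11 at 3.32, Sesn3 at 2.65 and Eif2b5 at -2.43, while most had narrower ones. With 1 array of each kind per genotype these gaps have no replicate and were not tested.

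**Figure D2:**
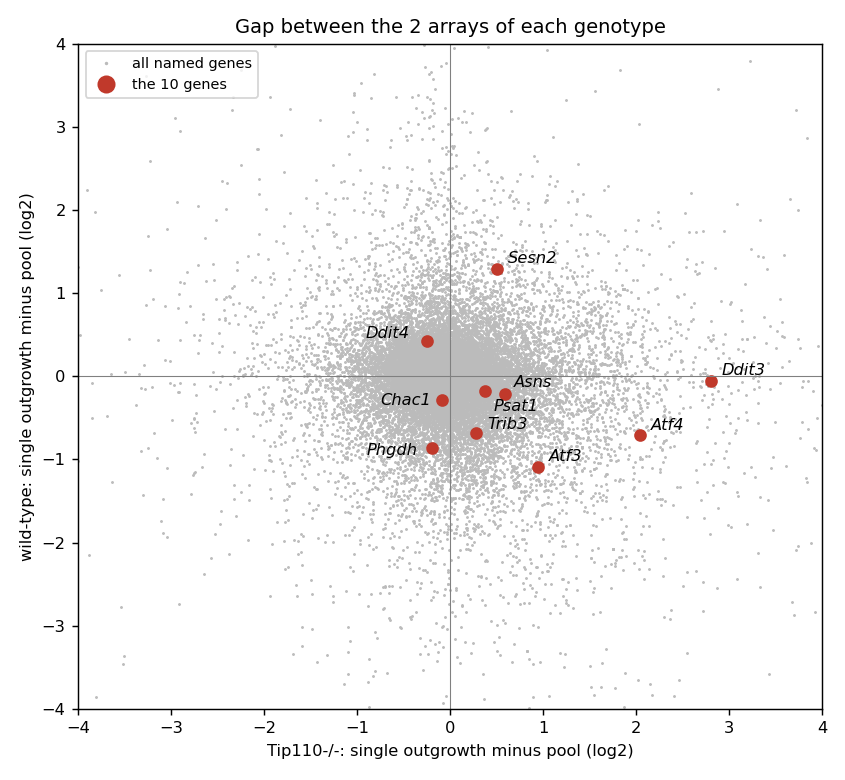
Gap between the single outgrowth and the pool of 3 in Tip110-/- (horizontal axis, log2) against the same gap in wild-type (vertical axis, log2), for the 10 genes in red and all named genes in grey; 210 genes lie beyond the plotted range of 4 in either direction. Ddit3 and Atf4 sit far to the right, at 2.80 and 2.04, and the other genes lie nearer the centre.

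Trib3 encodes a pseudokinase that ATF4 and CHOP induce and that feeds back on ATF4. Array by array, the log2 signal was 3.56 and 3.84 in Tip110-/-, compared with 4.22 and 3.54 in wild-type. The wild-type pool was the highest and the other 3 arrays lay within a narrow range. The difference was -0.18 ± 0.26 (SE; limma adjusted p = 0.718). Only 30.9% to 55.6% of negative control rows lay below it, so Trib3 was not measured above background and a change of its RNA could have been missed.

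Chac1 encodes an enzyme that breaks down glutathione and is a target of ATF4 and CHOP. On the log2 scale its signal was 3.65 and 3.57 in Tip110-/-, compared with 3.92 and 3.64 in wild-type. The values were close, and the Tip110-/- pool lay just above the single wild-type outgrowth, so the groups overlapped. The difference was -0.17 ± 0.14 (SE; limma adjusted p = 0.552), and 33.3% to 48.5% of negative control rows lay below Chac1 on each array. Like Trib3, Chac1 was therefore not measured above background, and the order of its arrays shows nothing.

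Asns encodes asparagine synthetase, which makes asparagine from aspartate and glutamine. Its log2 signal was 11.29 in the Tip110-/- pool and 11.88 in the single Tip110-/- outgrowth, against 12.07 and 11.85 in wild-type. The Tip110-/- pool was the lowest array, and the single outgrowths of both genotypes were nearly equal. The difference was -0.38 ± 0.49 (SE; limma adjusted p = 0.697), a ratio of 0.770 with a 95% interval from 0.320 to 1.86. On every array 96.0% to 98.2% of negative control rows lay below Asns, so it was measured well above them. In the single Tip110-/- outgrowth, where Atf4 and Ddit3 were high, Asns lay within the range of the wild-type arrays.

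Phgdh encodes phosphoglycerate dehydrogenase, which opens serine synthesis from glycolysis. The log2 signal came to 10.64 and 10.44 in Tip110-/-, compared with 11.28 and 10.42 in wild-type. The wild-type pool was the highest, and the Tip110-/- arrays lay between the 2 wild-type arrays. The difference was -0.31 ± 0.57 (SE; limma adjusted p = 0.782), a ratio of 0.807 with a 95% interval from 0.295 to 2.21.

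Psat1 encodes phosphoserine aminotransferase, the next enzyme of that pathway. Array by array, the log2 signal was 7.40 and 7.77 in Tip110-/-, compared with 8.11 and 7.94 in wild-type. Both Tip110-/- arrays lay below both wild-type arrays, by 0.70 between the pools and by 0.16 between the single outgrowths. The means were 7.59 ± 0.26 in Tip110-/- and 8.02 ± 0.12 in wild-type (SD, n = 2 each), and the difference of -0.43 ± 0.45 (SE) did not pass (limma adjusted p = 0.625). Its 95% interval, as a ratio, ran from 0.332 to 1.65.

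Sesn2 encodes a sestrin that senses leucine and restrains mTORC1, the kinase complex that drives growth. On the log2 scale its signal was 10.16 and 10.67 in Tip110-/-, compared with 9.49 and 10.78 in wild-type. The wild-type arrays held both the lowest and the highest value. The difference was 0.28 ± 0.67 (SE; limma adjusted p = 0.838).

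Ddit4 encodes REDD1, another brake on mTORC1, which acts through the TSC complex. Its log2 signal was 4.69 and 4.44 in Tip110-/-, compared with 3.93 and 4.35 in wild-type. Both Tip110-/- arrays lay above both wild-type arrays, by 0.76 between the pools and by 0.09 between the single outgrowths. The difference was 0.42 ± 0.22 (SE), with the smallest p of the 10 genes (limma adjusted p = 0.429). From 48.8% to 58.3% of negative control rows lay below Ddit4, and the median of those control rows was itself higher on both Tip110-/- arrays.

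**Figure D3:**
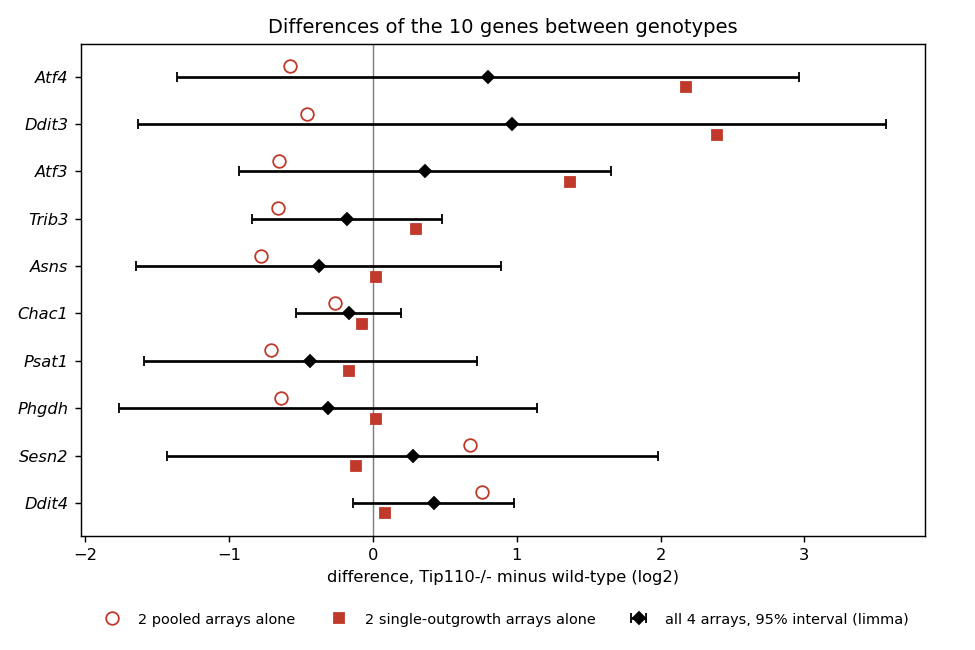
Difference of each gene between Tip110-/- and wild-type (log2), with limma's 95% interval over all 4 arrays as a diamond and bar, the difference between the pools as an open circle and that between the single outgrowths as a filled square. All 10 intervals include 0, and for Atf4, Ddit3 and Atf3 the pools gave -0.57, -0.45 and -0.65 while the single outgrowths gave 2.17, 2.39 and 1.37.

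Patterns over the 4 arrays were compared between genes by the root mean square difference of their mean-centred log2 values. By this measure Asns and Psat1 were closest, at 0.08, both lowest in the Tip110-/- pool. Trib3 lay closest to Chac1 and Phgdh closest to Trib3, both at 0.19. Since Trib3 and Chac1 were not measured above background, a likeness to either shows no shared pattern. Atf4 and Ddit3 were each other's nearest among the 10, at 0.37. The mean-centred mean profile of the 10 genes was -0.28 and 0.42 in Tip110-/- and 0.05 and -0.18 in wild-type, and the 5 nearest of 11468 other protein-coding genes were Magi3, Phykpl, Rab7, Cnksr1 and Cdk5r1, at 0.02 to 0.04. With 4 arrays and so many genes, close matches of this kind are a description only.

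Among genes that act before ATF4, the 2 widest differences were in subunits of the exchange factor eIF2B, which recharges eIF2 and is the target that phosphorylated eIF2α blocks. Of 13 measured genes for eIF2α kinases, phosphatase subunits, eIF2 and eIF2B, the unadjusted p was under 0.05 for 2 lower and 0 higher genes, where over all genes 3.67% were lower and 8.99% higher. The median difference was 0.00 against 0.15 over all genes. Eif2b5, the catalytic subunit of eIF2B, was at 8.44 and 6.00 in Tip110-/-, compared with 10.65 and 11.46 in wild-type, a difference of -3.83 ± 0.95 (SE; limma adjusted p = 0.339). Eif2b3, which belongs to the same catalytic part, was at 7.21 and 7.65 in Tip110-/-, compared with 8.55 and 9.23 in wild-type, a difference of -1.46 (adjusted p = 0.383). Eif2b1, a regulatory subunit, differed by -1.07 and Eif2s2, the β subunit of eIF2, by -0.57 (limma adjusted p = 0.427 and 0.445). For the other subunits of eIF2B the genotypes overlapped and the 2 kinds of array went opposite ways: Eif2b2 gave -0.85 between the pools and 1.87 between the single outgrowths (adjusted p = 0.729), and Eif2b4 gave -0.47 and 1.10 (adjusted p = 0.815). With any 1 of 3 arrays left out, the Tip110-/- pool, the single Tip110-/- outgrowth or the single wild-type outgrowth, 1 of the 13 was lower.

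For the kinases the values were small: Eif2ak1, Eif2ak2, Eif2ak3 and Eif2ak4 differed by -0.32, 0.00, 0.06 and -0.46 (limma adjusted p from 0.651 to 0.996), and Eif2ak2 lay among the negative control rows. Ppp1r15a, which encodes the stress-induced phosphatase subunit GADD34 that reverses eIF2α phosphorylation, was at 7.10 and 8.08 in Tip110-/-, compared with 7.32 and 6.46 in wild-type (limma adjusted p = 0.544). Its constitutive relative Ppp1r15b was at 10.57 and 11.82 in Tip110-/-, compared with 10.32 and 10.47 in wild-type (adjusted p = 0.531). Both were highest in the single Tip110-/- outgrowth and were picked out here after their values were seen. In the whole list 5 of 13 genes, or 38.5%, were highest on that array, beside 27.0% of all genes and 3 of the 10 genes.

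Among other factors and targets of the ATF4 network, amino acid transporters held the widest differences, and in both directions. Of 22 measured genes, 1 was higher and 5 lower at an unadjusted p under 0.05, beside 8.99% higher and 3.67% lower over all genes. Of the 22, 0 passed the adjusted threshold, and the median difference was -0.14 against 0.15 over all genes. The list took in these genes as textbook targets, and ATF4 is not their only regulator.

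Slc7a11, the cystine carrier of the cystine-glutamate exchanger, was the gene that was higher. The log2 signal came to 6.82 in the Tip110-/- pool and 10.14 in the single Tip110-/- outgrowth, against 4.54 and 4.41 in wild-type, a difference of 4.01 ± 1.10 (SE; limma adjusted p = 0.342). Both Tip110-/- arrays lay above both wild-type arrays, and the single outgrowth was again far above the pool. In wild-type 61.4% and 58.3% of negative control rows lay below Slc7a11, so it was not clearly above background there, and 4.01 is no exact size of the change and may be less than it. The pools differed by 2.29 and the single outgrowths by 5.74. With either wild-type array left out the count of higher genes was 0 of 22, and without the Tip110-/- pool it was 2. Slc38a2, a carrier of small neutral amino acids that rises when they are short, was also picked out after its values were seen, at 10.68 and 12.83 in Tip110-/-, compared with 10.38 and 9.51 in wild-type (difference 1.81, adjusted p = 0.420). Its pools differed by only 0.29 and its single outgrowths by 3.33.

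The 5 that were lower were Slc7a3, Slc1a5, Cth, Slc7a5 and Nupr1. Slc7a3, a carrier of cationic amino acids, was at 6.19 and 5.98 in Tip110-/-, compared with 10.47 and 10.14 in wild-type, a difference of -4.22 ± 0.47 (SE; limma adjusted p = 0.284). Cth, the enzyme that releases cysteine from cystathionine, was at 6.47 and 5.40 in Tip110-/-, compared with 8.75 and 9.50 in wild-type, a difference of -3.19 ± 0.58 (SE; adjusted p = 0.318). Slc1a5, a glutamine carrier, was at 4.93 and 5.49 in Tip110-/-, compared with 7.62 and 7.55 in wild-type, a difference of -2.37 ± 0.37 (SE; adjusted p = 0.290). The shares of negative control rows below them in Tip110-/- were 78.2% and 76.3% for Slc7a3, 80.5% and 70.3% for Cth, and 62.6% and 71.4% for Slc1a5. Slc1a5 was thus not far from these controls there, so -2.37 is no exact size of the change. In these 3 genes both Tip110-/- arrays lay below both wild-type arrays, as in 12.9% of all genes. They had the smallest p of the list, so this, and the same direction in pools and single outgrowths, follows largely from how they were picked. Slc7a5, the large neutral carrier, differed by -1.68 and Nupr1, a stress-induced chromatin protein, by -0.89. In Tip110-/- 68.3% and 63.8% of negative control rows lay below Nupr1, so -0.89 is no exact size either. Without the single Tip110-/- outgrowth 3 of the 22 were lower.

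Beyond Phgdh and Psat1, most measured genes of serine, glycine, proline and one-carbon metabolism had values below 0. Of 17 genes, 16 were below 0 and 1 above, beside 9158 of 30142 below 0 over all genes, and the median difference was -0.77 against 0.15. The comparison over all genes includes many rows near the negative controls, which were themselves higher on the Tip110-/- arrays. With rows above the median row only, the list's median relative to all genes fitted was -0.90, beside -0.92 as reported. Only 1 was lower at an unadjusted p under 0.05 and 0 higher, beside 3.67% lower and 8.99% higher over all genes. It was Gldc, the glycine decarboxylase of the glycine cleavage system. Gldc was at 5.92 and 5.77 in Tip110-/-, compared with 7.60 and 9.52 in wild-type (difference -2.71 ± 0.72 SE, limma adjusted p = 0.339). Its pools differed by -1.68 and its single outgrowths by -3.75. Amt, of the same system, was at 4.76 and 4.53 in Tip110-/-, compared with 5.22 and 8.21 in wild-type (limma adjusted p = 0.413). Its difference of -2.07 rested on the single wild-type outgrowth, since the pools differed by -0.46 and the single outgrowths by -3.68. The serine hydroxymethyltransferase Shmt1 differed by -1.22 and Mthfd1l, which makes formate in mitochondria, by -1.23, with limma adjusted p of 0.396 and 0.400. For Shmt1 the pools gave -0.46 and the single outgrowths -1.98, and for Mthfd1l the pools gave -1.89 and the single outgrowths -0.56. In Tip110-/- 75.5% and 74.4% of negative control rows lay below Gldc, 59.9% and 57.3% below Amt, and 63.4% and 62.4% below Mthfd1l. Those signals were not far from the controls, so the differences of Gldc, Amt and Mthfd1l are no exact sizes. Psph, which finishes serine synthesis after Phgdh and Psat1, was at 5.21 and 4.73 in Tip110-/-, compared with 5.58 and 4.71 in wild-type, a difference of -0.18 (limma adjusted p = 0.814). The 3 serine synthesis enzymes were thus at -0.31, -0.43 and -0.18. Of these, Psph lay nearest the negative controls, with 61.1% to 76.0% of those rows below it on each array. The count lower at an unadjusted p was 2 without the wild-type pool and 3 without the single wild-type outgrowth.

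Aminoacyl-tRNA synthetases load tRNAs with amino acids, and many of their genes are known targets of ATF4. Of 18 measured cytoplasmic ones, the unadjusted p was under 0.05 for 4 lower and 0 higher ones, where over all genes 3.67% were lower and 8.99% higher. Their median difference was -0.31 against 0.15 over all genes, many of which lay near the negative controls. Relative to all genes it was -0.46, and it ran from -0.49 to -0.25 in the refits on all 4 arrays. Eprs, which loads glutamate and proline, was at 10.08 and 9.29 in Tip110-/-, compared with 11.79 and 12.71 in wild-type, a difference of -2.56 ± 0.62 (SE; limma adjusted p = 0.334). Gars for glycine differed by -1.61, Mars1 for methionine by -1.50 and Vars for valine by -1.16. The count was 1 without the Tip110-/- pool, without the single Tip110-/- outgrowth and without the wild-type pool.

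Sestrins and mTORC1 control, the setting in which Sesn2 and Ddit4 act, held 17 measured genes, and 1 of them was lower and 0 higher at that unadjusted threshold, a share near the 3.67% lower over all genes. The median difference was -0.25 against 0.15 over all genes. Relative to all genes it was -0.40, and it ran from -0.42 to -0.18 in the refits on all 4 arrays. The gene past the threshold was Tsc2, a subunit of the complex that holds mTORC1 back, at 6.75 and 7.51 in Tip110-/-, compared with 8.80 and 8.27 in wild-type (difference -1.41, limma adjusted p = 0.386). The count was 0 lower with the replicate block and with all rows fitted. Without the Tip110-/- pool the counts were 0 lower and 1 higher, and without the wild-type pool 1 was higher. Mtor itself differed by -1.22, its partner Rptor by -1.21 and Nprl2, an amino acid-dependent inhibitor, by -1.15, with limma adjusted p of 0.396 to 0.398. The other sestrins overlapped between genotypes, as Sesn2 did. Sesn1 was at 4.49 and 4.06 in Tip110-/-, compared with 4.49 and 5.92 in wild-type (limma adjusted p = 0.437), and only the single wild-type outgrowth stood apart. Sesn3 was at 8.26 and 10.91 in Tip110-/-, compared with 11.04 and 9.77 in wild-type (adjusted p = 0.690), and the pools and the single outgrowths differed in opposite directions.

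**Figure D4:**
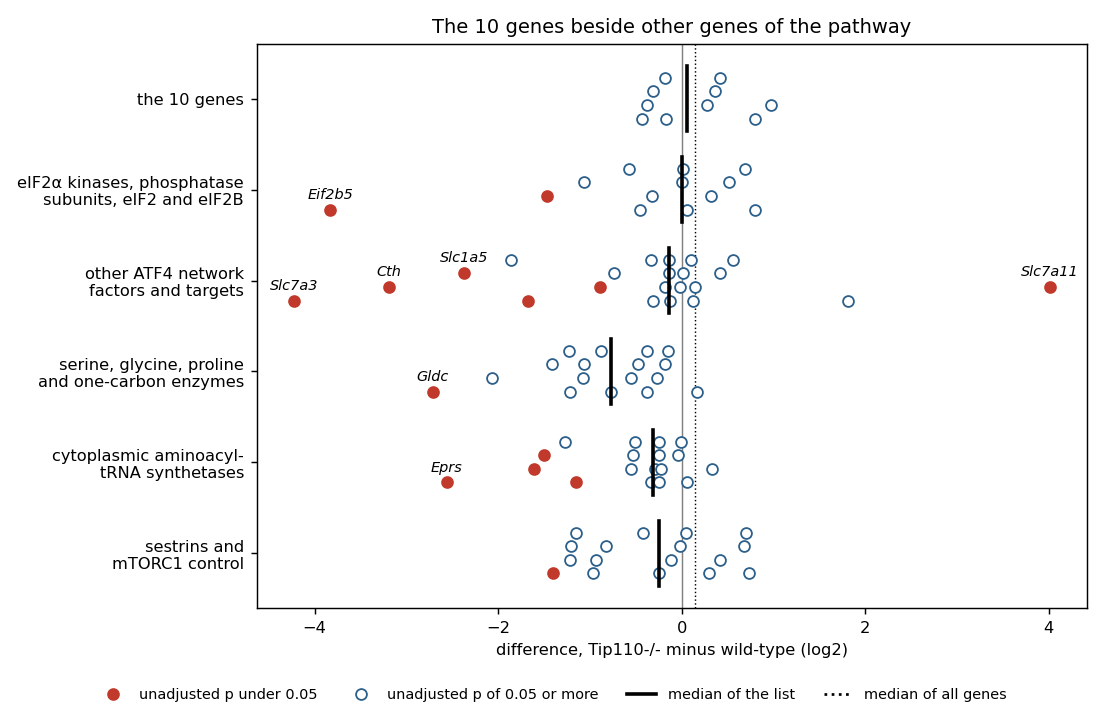
Difference between Tip110-/- and wild-type (log2) for the 10 genes in the top row and for 5 other groups of the pathway, 1 point per gene, filled where the unadjusted limma p was under 0.05, with the median of each group as a thick bar and the median of all genes, 0.15, as a dotted line. The 10 genes lie between -0.43 and 0.97, while the groups around them hold values from -4.22 for Slc7a3 to 4.01 for Slc7a11, whose wild-type signals were not clearly above background.

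Cell type markers differed between the same arrays. All 10 epiblast markers were below both wild-type arrays on both Tip110-/- arrays, where 12.9% of all genes were, with median signals of 7.81 and 5.60, compared with 10.01 and 9.70 in wild-type; Pou5f1 was at 7.75 and 5.52 against 10.04 and 10.06, and Nanog at 10.10 and 4.15 against 13.56 and 15.19. Krt8, a keratin of trophoblast, was at 16.95 and 17.22 in Tip110-/-, compared with 16.88 and 16.08 in wild-type. Of 10 measured trophoblast markers 6 were above both wild-type arrays on both Tip110-/- arrays, beside 39.9% of all genes. In the single Tip110-/- outgrowth, where Atf4 and Ddit3 were highest, 7 of the 10 had their highest value, beside 27.0% of all genes. Their median signal was 9.12 and 11.10 in Tip110-/-, compared with 9.39 and 9.55 in wild-type. The 9 measured markers of primitive endoderm had medians of 5.00 and 4.98 in Tip110-/-, compared with 5.38 and 4.65 in wild-type, and the 8 fibroblast markers stayed near the negative controls, at 3.94 and 3.81 against 3.61 and 3.80. The part of cell composition in the values of the 10 genes and of the other groups was not tested. In RNA of whole outgrowths, fewer cells of a type cannot be told apart from less RNA per cell.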

How the data were processed

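RNA of 4 outgrowth samples was measured on Affymetrix whole-transcript arrays. The authors deposited 1 table of log2 values, 72688 rows by 4 arrays; the log base was inferred from their range. The submitters' processing notes name 2 programs without a version, Transcriptome Analysis Console and Affymetrix Expression Console. Which normalization and which genome build they used is not given in the sources used here. The labels state 144 pg of RNA per array, the design text 100 pg.

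Rows were named through the platform annotation, with symbols updated by Entrez ID from GRCm38.p6. Of 65956 non-control rows, 30604 had 1 distinct symbol, 2146 several and 33206 none; the brightest row per gene left 30142 genes. Each was fitted in R 4.3.3 with limma 3.58.1 (lmFit, eBayes with an intensity trend, genotype only, no filter), two-sided, with Benjamini-Hochberg adjustment over all genes and 95% intervals from the moderated fit. The number of arrays limits the precision. The fit was tested on simulated data. Figures used matplotlib 3.10.9 in Python 3.11.15.

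The members and the lists were chosen with earlier results of these data known. Genes named from a list are the 4 with the smallest p, unless stated otherwise. Of the 99 list entries, 87 had a row. Promoters are from RefSeq.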

Additional observations from a re-analysis of the deposited data

How the results depend on the processing

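Under 15 refits, 0 genes passed the adjusted threshold in any of them. These were quantile normalization, centring of arrays, cyclic loess, rows above the median row only, 3 variance priors, array weights, the replicate block, averaged rows per gene, all non-control rows, and leaving out 1 array at a time. The 10 genes held 0 lower at an unadjusted p under 0.05 in all of them, and 0 higher except for 0 to 1 with an array left out, the 1 being Ddit3 without the Tip110-/- pool. The 3 variance priors, the array weights, the replicate block and the choice of rows fitted left each difference of the 10 genes as it was. Averaged rows moved only that of Ddit3, which had 2 rows. For the other genes, then, only the scaling and leaving out 1 array bear on direction. No direction of the 10 genes changed with the scaling, but leaving out 1 array changed it in 6. The differences then ran from -0.22 to 1.82 for Atf4, -0.43 to 2.37 for Ddit3, -0.18 to 0.90 for Atf3, -0.52 to 0.16 for Trib3, -0.74 to 0.12 for Phgdh and -0.37 to 0.92 for Sesn2. For Atf3, leaving out the single Tip110-/- outgrowth also turned it, to -0.11. Chac1, Psat1 and Ddit4 kept their direction in each refit that could have changed it and between the pools and the single outgrowths alone. Asns kept its direction in those refits, but the single outgrowths alone gave 0.02, against -0.38 as reported.

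In this balanced layout the replicate block cannot move a difference, only its error, so 0.80 for Atf4 and 0.97 for Ddit3 stayed by construction. With the block the limma adjusted p was 0.681 for Atf4 and 0.629 for Ddit3, and it called 0 genes. The correlation between genotypes of deviations from group means was -0.09. With 2 arrays per genotype, and replicate number also separating pools from single outgrowths, it cannot decide whether equal numbers share an effect. The shift of all genes, 0.15, was -0.02 after centring, 0.01 after quantile normalization and 0.00 after cyclic loess, and the 10 genes' median relative to all genes, -0.10, ran from -0.12 to 0.24, and from -0.40 to 0.02 with 1 array left out. With rows above the median row only the shift was 0.075. There 957 of 17491 genes were higher and 1037 lower at limma's unadjusted p under 0.05, so the excess of higher genes was not kept. Over all genes, the count at an unadjusted p under 0.05 went as far as 911 higher and 1825 lower after centring, beside 2711 and 1106, and 4660 were higher without the single Tip110-/- outgrowth. Counts lower at an unadjusted p in the other groups ran from 1 to 4 for eIF2 and its regulators, 3 to 6 for the ATF4 network (0 to 2 higher), 0 to 3 for serine and one-carbon enzymes, 1 to 5 for tRNA synthetases and 0 to 4 for mTORC1 control. Low signal limits Trib3, Chac1, Ddit4 and Atf3, which lay among the negative control rows; Trib3 and Chac1 fell out of the fit above the median row.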
